A study of Homo sapiens with 3 samples.

Results

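RNA-seq levels of the integrin and laminin subunits were examined in HCT-116 cells, an established human colon carcinoma line, with and without siRNA against *APC*. Integrins and laminins were taken by gene symbol, as every gene named ITGA with a number or one of the letters V, L, M, X, D or E, ITGB with a number, or LAMA, LAMB or LAMC with a number, and this gave 38 of the 23131 genes in the deposited table: 26 integrin and 12 laminin subunits. One group was transfected on consecutive days with a pool of siRNA targeting *APC*, using the lipid reagent Dharmafect 2, and harvested 48 hours after the last transfection; the other is called untransfected in its title and reagent-only (mock) in its treatment label, so it is named untransfected here. Both groups carry wild-type *APC* and a *CTNNB1* allele lacking Ser45, which makes a β-catenin that resists degradation, so Wnt signalling is already active in the control cells. Each group is 1 library of 1 cell line, without replicates, so no test was possible and every ratio below compares those libraries. A scrambled siRNA library of the same experiment was not analysed here, and an effect of delivering siRNA cannot be told apart from an effect of the *APC* sequence.

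Integrins are receptors made of one α and one β chain that span the cell membrane, bind extracellular matrix outside and couple to the actin or keratin cytoskeleton inside. Laminins are cross-shaped trimers of one α, one β and one γ chain and are the main network-forming proteins of the basement membrane under an epithelium. Intestinal epithelial cells hold the laminin network through the α3β1, α6β1 and α6β4 integrins, the last of which anchors hemidesmosomes, and through α2β1 they bind collagen. Because the chains work in fixed combinations, receptors and ligands are described side by side below.

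The targeted gene was checked first: *APC* measured 3.43 FPKM with the siRNA and 9.15 FPKM without, 37.5% of the untransfected level. FPKM counts sequenced fragments relative to transcript length and to the mapped reads of the library, so it allows levels of different genes to be compared per length. The epithelial genes were abundant in both libraries, with *EPCAM* at 170 and 190 FPKM (anti-*APC* first, here and throughout) and *KRT8* at 478 and 588 FPKM, while *CDH1* was at 12.1 and 19.0 FPKM and *VIL1* was at or near 0. The 5 epithelial markers assessed, of 6 listed, were all lower with the siRNA, as were 7073 of all 12063 genes assessed. The median log2 ratio of the 5 was −0.41, beside −0.05 over all assessed genes. With the trend on transcript G and C content described below subtracted, the 5 ranged from −0.13 (*KRT8*) to −0.61 (*CDH1*). The part of these markers in the results below was not tested. The 4 leukocyte, 3 endothelial and 3 platelet markers stayed at or below 0.182, 0.0587 and 0.882 FPKM, and of 4 fibroblast markers *COL1A1* (3.08 and 2.85 FPKM) was the only one above 0.024 FPKM. From the spacing of the lowest values the depth was about 23000000 reads with the siRNA and 25200000 reads without. In bulk RNA, fewer cells of a type and less RNA per cell cannot be told apart.

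Of the 38 subunits, 21 had a mean of at least 1 FPKM over both libraries and are assessed here, 11 of 26 integrins and 10 of 12 laminins. With anti-*APC* siRNA 1 of the 21 was at least 1.5-fold higher (*LAMA2*), where 2.56% of the 12063 genes assessed were, and 6 were at least 1.5-fold lower (*ITGA3*, *ITGB4*, *LAMA3*, *LAMA4*, *LAMB2* and *LAMC3*), where 6.61% of all genes were. The log2 ratio was below 0 in 16 of the 21, and in 7073 of the 12063 genes assessed. Its median was −0.16 over the integrins and −0.51 over the laminins, beside −0.05 over all assessed genes. The remaining 17 subunits did not exceed 0.531 FPKM in either library.

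**Figure D1:**
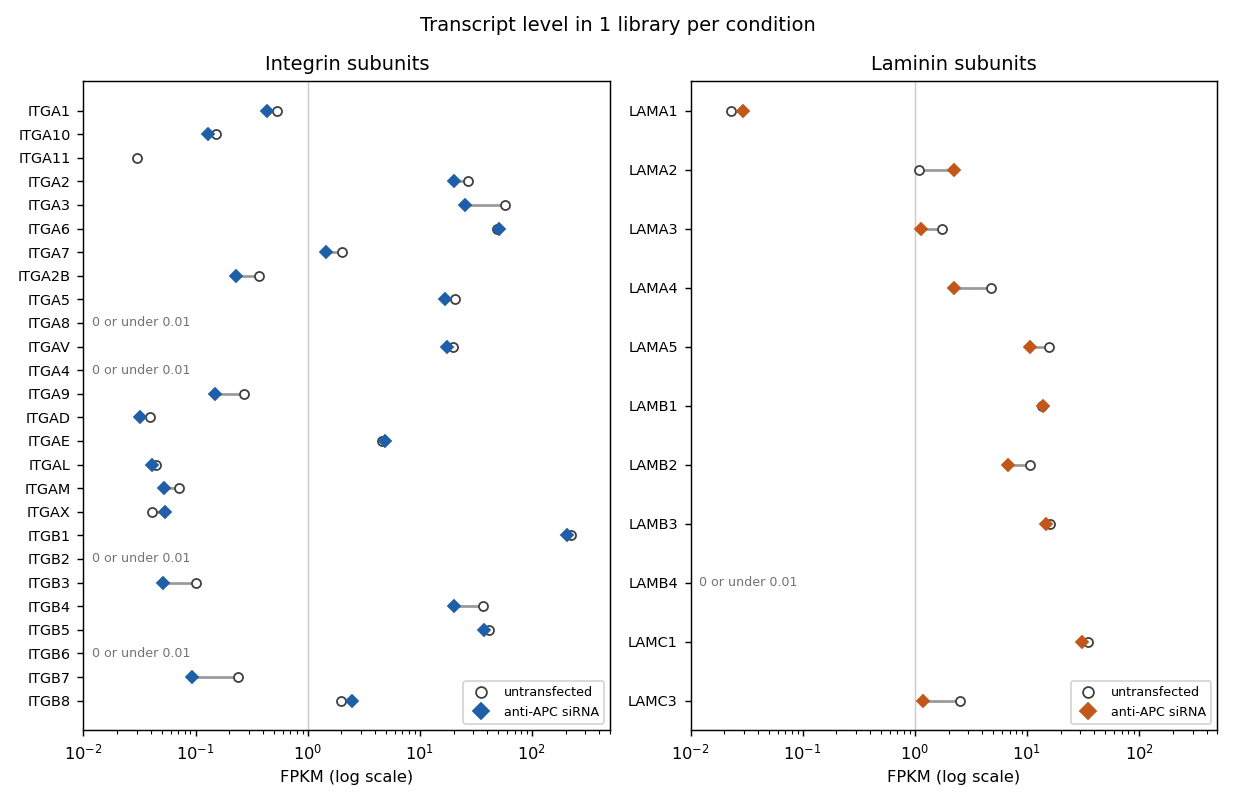
Transcript level of the subunits on a log FPKM axis, with an open circle for the untransfected library and a filled diamond for the anti-*APC* library, 1 library each. The grey vertical line marks 1 FPKM. *ITGB1* lies furthest to the right, at 206 and 224 FPKM, and the widest gaps among subunits above 1 FPKM are those of *ITGA3*, *ITGB4*, *LAMA2*, *LAMA4* and *LAMC3*.

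Among receptors that bind laminin, the 2 abundant α chains did not move together. *ITGA3*, the α chain of the α3β1 laminin receptor (chr17:48133332-48167845 in GRCh37, plus strand), measured 25.2 FPKM with the siRNA and 57.7 FPKM without, a ratio of 0.436. The 95% interval from counting error alone was 0.417 to 0.455, and only 0.788% of all assessed genes had a lower ratio. *ITGA6*, the α chain shared by α6β1 and α6β4 (chr2:173292082-173371187), measured 51.3 and 48.8 FPKM, a ratio of 1.05 with an interval of 1.02 to 1.09. *ITGA3* was therefore the more abundant of the pair in untransfected cells, at 1.18 times *ITGA6*, and the less abundant in anti-*APC* cells, at 0.491 times. *ITGA7*, a laminin-binding chain best known in muscle (chr12:56078352-56110188), was low at 1.46 and 2.02 FPKM (ratio 0.721, interval 0.578 to 0.898). The annotated *ITGA7* locus overlaps that of *METTL7B*, which was higher at 4.93 and 5.86 FPKM. Summed over these 3 chains the level was 77.9 FPKM against 109 FPKM, and the share held by *ITGA3* was 32.3% against 53.2%.

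*ITGB4*, the β chain that pairs with α6 alone and forms the core of the hemidesmosome (chr17:73717408-73753899), was also low with the siRNA, at 20.0 FPKM against 36.8 FPKM. Its ratio was 0.545 (interval 0.520 to 0.571), and 2.16% of assessed genes were lower. Relative to its sole partner, *ITGB4* was at 0.391 times *ITGA6* in anti-*APC* cells and 0.753 times in untransfected cells. Of the other hemidesmosome and membrane partners of these integrins, a list of 8 genes that includes plectin (*PLEC*) and the tetraspanin gene *CD151*, 7 were assessed and none was past 1.5-fold in either direction, where 2.56% of all genes were higher and 6.61% lower, so that a count of 0 in 7 is near the background. Their median log2 ratio was −0.17, with *PLEC* at 52.3 and 64.1 FPKM, *CD151* at 109 and 141 FPKM and the α6β4 linker dystonin (*DST*) at 28.2 and 25.1 FPKM.

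*ITGB1*, the β chain with the widest choice of partners (chr10:33176201-33294720), was by far the most abundant subunit, at 206 and 224 FPKM. The ratio was 0.919 with an interval of 0.90 to 0.937, close to the median of all genes. It supplied 77.5% of summed integrin β FPKM with the siRNA and 73.5% without. *ITGB5*, which pairs with αV to bind vitronectin (chr3:124480795-124620265), was at 37.2 and 41.6 FPKM (ratio 0.895, interval 0.858 to 0.935). *ITGB8*, an αV partner known for activating latent TGF-β (chr7:20370325-20455377), was at 2.51 and 1.99 FPKM, and its ratio of 1.26 (interval 1.11 to 1.43) was the highest of any integrin assessed. Of the 4 β chains assessed, *ITGB4* was thus the furthest from its untransfected level.

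The α chains that bind other ligands were within 1.5-fold. *ITGA2*, whose α2β1 integrin is a collagen receptor of epithelia and platelets (chr5:52285170-52390609), was at 20.2 and 26.8 FPKM, a ratio of 0.752 with an interval of 0.721 to 0.784. *ITGA5*, the fibronectin receptor chain (chr12:54789045-54813050), was at 16.6 and 20.6 FPKM (ratio 0.809, interval 0.759 to 0.863). *ITGAV*, which serves the vitronectin receptors and binds the RGD motif (chr2:187454737-187545628), was at 17.6 and 19.7 FPKM (ratio 0.892, interval 0.849 to 0.938). All 3 chains were lower with the siRNA by more than counting error, and none by as much as *ITGA3*. *ITGAE*, best known as the αE chain by which intraepithelial T cells bind E-cadherin (chr17:3617922-3704482), was at 4.84 and 4.57 FPKM (ratio 1.06, interval 0.926 to 1.21), although the 4 leukocyte markers were at most 0.182 FPKM. The *ITGAE* locus overlaps that of *GSG2*, which was higher at 13.92 and 13.94 FPKM. Without strand, reads of *GSG2* cannot be told apart from those of *ITGAE* where the loci overlap.

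The other 15 integrins were near or at 0. *ITGA1*, a second collagen-binding chain, was at 0.436 and 0.531 FPKM and lies 30.1 kb from *ITGA2*, and *ITGA10* and *ITGA11* were at most 0.153 FPKM. *ITGA2B* and *ITGB3*, which together make the platelet fibrinogen receptor, were at most 0.370 and 0.10 FPKM. *ITGA4* was at 3.69e-05 and 6.59e-06 FPKM in the anti-*APC* and untransfected libraries, *ITGA9* was at 0.148 and 0.270 FPKM, and *ITGB7* was at 0.0926 and 0.240 FPKM. The leukocyte chains *ITGAL*, *ITGAM*, *ITGAX* and *ITGAD* did not exceed 0.0717 FPKM, and their β chain *ITGB2* was listed at 0 in both libraries, as were *ITGA8* and *ITGB6*. Ratios at these levels are not described here and enter only the alternative without a minimum level.

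**Figure D2:**
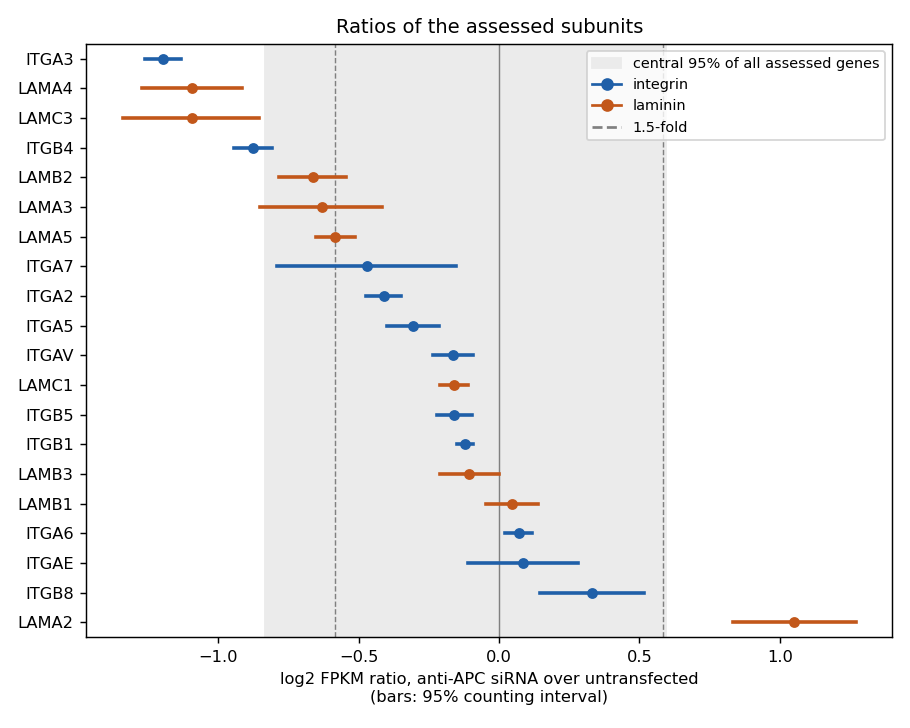
log2 ratio of FPKM, anti-*APC* over untransfected, for the assessed subunits ordered from lowest to highest; points are the ratio of 1 library each and bars are 95% counting intervals, which hold no biological error. Dashed lines mark 1.5-fold and the grey band spans −0.83 to 0.60, the central 95% of 12063 assessed genes. *ITGA3*, *LAMA4*, *LAMC3* and *ITGB4* lie to the left of the band and *LAMA2* to its right.

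The laminin α chains, which set the receptor a laminin trimer binds, differed in opposite directions. *LAMA2*, the α chain of merosin and best known from muscle (chr6:129204283-129837711, plus strand), was at 2.24 FPKM with the siRNA and 1.08 FPKM without. The ratio was 2.07 (interval 1.78 to 2.41, from about 501 and 265 reads), and 99.2% of assessed genes were lower. *LAMA4*, the α chain of endothelial and mesenchymal laminins on the same chromosome (chr6:112429134-112576141), was at 2.22 and 4.74 FPKM. Its ratio was 0.469 (interval 0.414 to 0.530), with 0.995% of assessed genes lower. *LAMA2* was 0.229 times *LAMA4* in the untransfected library and 1.01 times *LAMA4* in the anti-*APC* library, so both transcripts were at about the same level there.

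*LAMA5*, the main α chain of mature intestinal and other epithelial basement membranes (chr20:60883011-60942368), remained the most abundant of the 5, at 10.6 and 15.8 FPKM. Its ratio of 0.668 (interval 0.637 to 0.700) fell just short of the 1.5-fold line, a ratio of 0.667 that the interval includes. A *MIR4758* locus lies within the *LAMA5* locus and was listed at 61.0 FPKM with the siRNA and 0 without. Its part in the *LAMA5* ratio was not tested. *LAMA3*, an α chain of the laminin of hemidesmosomes (chr18:21269417-21536186), was past the 1.5-fold line at 1.13 and 1.76 FPKM. The *LAMA3* ratio was 0.646, with an interval of 0.554 to 0.750 that includes the line. *LAMA1* was under 0.03 FPKM in both libraries. The summed laminin α level was 16.2 FPKM with the siRNA and 23.4 FPKM without; *LAMA5* held 65.2% and 67.5% of it, *LAMA4* held 13.7% and 20.3%, and *LAMA2* held 13.9% and 4.63%.

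Sequence before the RefSeq start sites is shown for the laminin α genes, whose transcripts differed in opposite directions. Each line gives the 250 bases before the start, 5′ to 3′ on the gene's strand, from RefSeq on GRCh38.p14. The study's question concerns the Wnt effector TCF7L2 and AP-1, so capitals mark a match to TCF7L2 words (on either strand, AACAAAG or a form of it whose opening AA is replaced by AT, TA or TT) or to an AP-1 word (TGACTCA, or on the other strand TGAGTCA); no such words overlap. *LAMA2* (chr6:128882888-128883137, plus strand) holds 1 TCF7L2 word, 233 bases before the start; *LAMA3* (chr18:23872770-23873019, plus strand) holds AP-1 words 125 and 69 bases before; *LAMA4* (chr6:112254568-112254817, minus strand) and *LAMA5* (chr20:62367313-62367562, minus strand) hold neither.
LAMA2: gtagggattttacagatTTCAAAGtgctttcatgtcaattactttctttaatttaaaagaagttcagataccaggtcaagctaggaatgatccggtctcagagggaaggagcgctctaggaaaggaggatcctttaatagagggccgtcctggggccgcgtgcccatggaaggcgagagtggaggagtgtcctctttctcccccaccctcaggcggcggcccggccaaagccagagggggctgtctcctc
LAMA3: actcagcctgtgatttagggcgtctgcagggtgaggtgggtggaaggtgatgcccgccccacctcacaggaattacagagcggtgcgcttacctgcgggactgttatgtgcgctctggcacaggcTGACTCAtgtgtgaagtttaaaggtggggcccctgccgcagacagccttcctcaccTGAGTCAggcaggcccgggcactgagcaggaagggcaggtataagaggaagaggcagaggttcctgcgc
LAMA4: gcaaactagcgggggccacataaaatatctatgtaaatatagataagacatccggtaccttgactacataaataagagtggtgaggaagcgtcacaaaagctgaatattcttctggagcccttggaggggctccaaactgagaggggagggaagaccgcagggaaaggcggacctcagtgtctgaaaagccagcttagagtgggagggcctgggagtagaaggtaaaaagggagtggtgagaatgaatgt
LAMA5: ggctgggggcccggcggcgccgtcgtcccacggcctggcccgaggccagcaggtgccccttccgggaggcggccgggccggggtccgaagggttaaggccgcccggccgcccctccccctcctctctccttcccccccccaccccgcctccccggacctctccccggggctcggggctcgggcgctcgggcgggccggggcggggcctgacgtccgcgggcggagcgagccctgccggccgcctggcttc
The *LAMA5* window is 82.8% G and C, against 48.4% for *LAMA4*, 53.2% for *LAMA2* and 60.4% for *LAMA3*. Windows were given for 26 of the 38 subunits and 16 of the 21 assessed, and *ITGA3*, *ITGA7*, *ITGA9*, *ITGAD*, *ITGAL*, *ITGAX*, *ITGB2*, *ITGB3*, *ITGB4*, *LAMA1* and *LAMC3* were among those without one. A TCF7L2 word was in 2 of the 23 windows of assessed subunits (*LAMA2* and one *ITGAV* start) and in 11.96% of 35116 windows over all genes. An AP-1 word was in 2 of the 23 (*LAMA3* and one *LAMB3* start) and in 4.203% of all windows. Such matches are a description of the letters, and binding was not measured in these libraries. Windows were taken by gene symbol and were not matched to the canonical transcript used for length and GC. A window, such as that of *LAMA3*, may therefore belong to the start of another transcript of the gene.

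The β chains of laminin were close to their untransfected levels except *LAMB2*. *LAMB1*, the β chain of most early and epithelial trimers (chr7:107564244-107643658), was at 14.04 and 13.6 FPKM (ratio 1.03, interval 0.967 to 1.10). *LAMB2*, which replaces *LAMB1* in laminins of vessels, kidney and synapse (chr3:49158547-49170551), was at 6.78 and 10.8 FPKM, a ratio of 0.631 with an interval of 0.580 to 0.686 that includes the 1.5-fold line, and 4.84% of assessed genes were lower. *LAMB2* was 0.483 times *LAMB1* with the siRNA and 0.790 times without. *LAMB3*, the β chain of the hemidesmosomal laminin (chr1:209788215-209825770), was at 14.8 and 15.9 FPKM (ratio 0.928, interval 0.864 to 0.999), and a *MIR4260* locus lies within it. *LAMB4*, 20.3 kb from *LAMB1*, was listed at 0 in both libraries.

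Of the γ chains, *LAMC1*, which is in most laminin trimers (chr1:182992555-183114727), was the most abundant at 31.3 and 34.9 FPKM (ratio 0.895, interval 0.864 to 0.927). *LAMC3*, a γ chain of restricted expression (chr9:133884561-133969860), was at 1.18 and 2.52 FPKM, a ratio of 0.469 with an interval of 0.395 to 0.553, and 1.00% of assessed genes were lower. The *LAMC3* interval lies wholly below that of *LAMC1*. *LAMA5* was 0.338 times *LAMC1* with the siRNA and 0.453 times without. The summed β level was 35.6 against 40.3 FPKM, above the summed α level in both libraries.

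**Figure D3:**
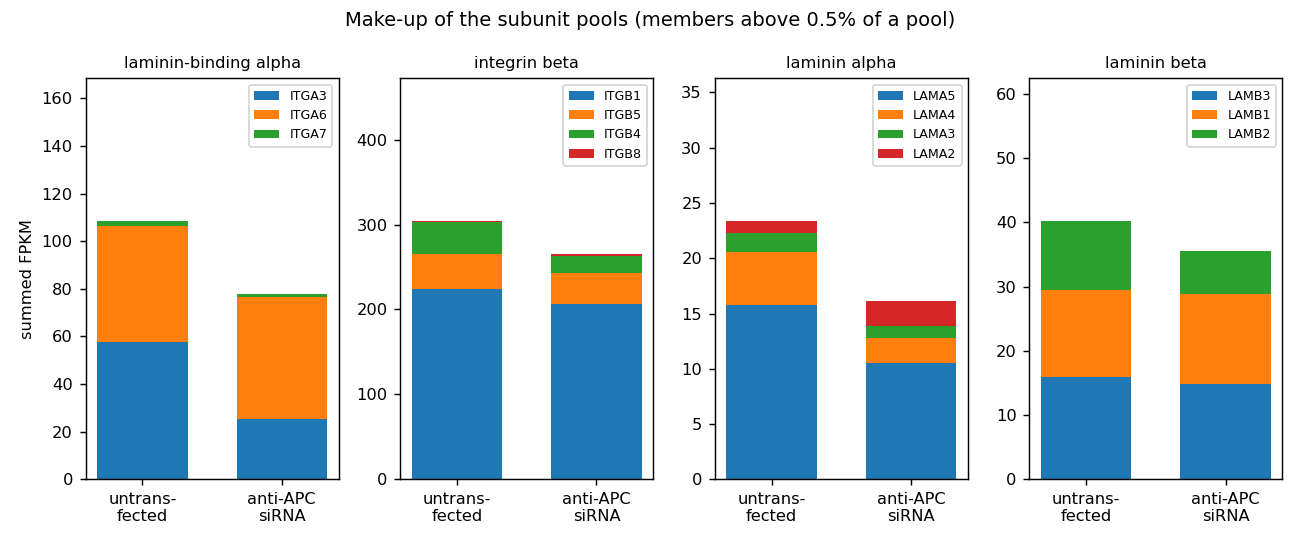
Summed FPKM of 4 subunit classes in the untransfected (left bar) and anti-*APC* (right bar) library, coloured by subunit, each panel with its own axis from 0; subunits holding 0.5% or less of a class in both libraries are left out. The *ITGA3* block is 53.2% and then 32.3% of the laminin-binding α chains, the *LAMA2* block is 4.63% and then 13.9% of laminin α, and *ITGB1* holds more than 70% of integrin β in both bars.

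Transcript level and base composition moved with these ratios over the whole table. Of all genes with a mean of 1 to 5 FPKM, 15.7% were at least 1.5-fold lower and 4.30% higher, against 2.83% lower and 2.39% higher at 30 FPKM or more. *LAMA2*, *LAMA3*, *LAMA4* and *LAMC3* are in the lowest class, and *ITGA3*, *ITGB4* and *LAMB2* are not. Of all genes whose transcript is at least 55% G and C, 11.98% were at least 1.5-fold lower and the median log2 ratio was −0.18, against 3.50% and −0.0016 for the rest. The 8 assessed subunits in the GC-rich class were all below 0, where 2720 of all 3482 genes of that class were. Of these 8 subunits, 4 were at least 1.5-fold lower (*ITGA3*, *ITGB4*, *LAMB2* and *LAMC3*), and the median was −0.62. The 13 others had 2 lower and 1 higher, with a median of −0.16. Across the 21 subunits, which share both libraries, the log2 ratio and transcript GC had a Pearson r of −0.49 and a Spearman rho of −0.55, and across 11310 genes −0.30 and −0.36.

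After the trend of the ratio on GC over all genes was subtracted, *LAMA2* was still at least 1.5-fold higher, where 2.36% of 11310 genes were, and 4 subunits were still at least 1.5-fold lower, where 3.99% were. These 4 were *ITGA3* at a log2 value of −1.01, *LAMA4* at −1.08, *LAMC3* at −0.88 and *ITGB4* at −0.65. *LAMB2* was then at −0.48 and *LAMA3* at −0.56, both within 1.5-fold, and *LAMA5* was at −0.31. *LAMB3* changed sign, from −0.11 to 0.06, and *LAMA2* was at 1.07. The median over the laminins was then −0.34.

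**Figure D4:**
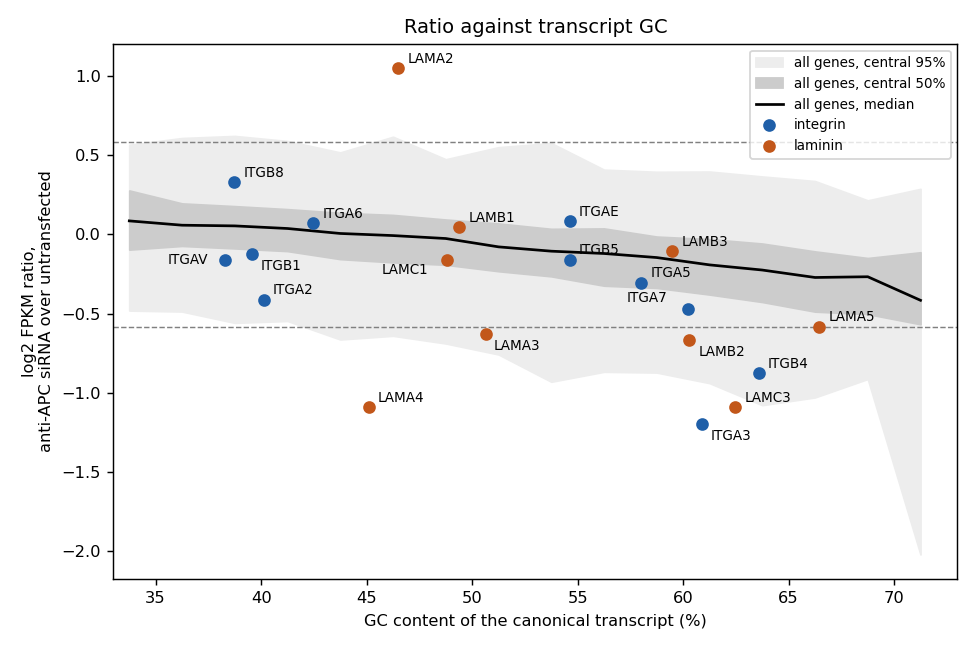
log2 ratio of FPKM, anti-*APC* over untransfected, against the G and C content of the GENCODE canonical transcript; bands and line give the central 95%, central 50% and median of all assessed genes in bins of 2.5% GC, and dashed lines mark 1.5-fold. The gene median descends with GC, *LAMA2* and *LAMA4* stand above and below the bands at a GC of 46.5% and 45.1%, and *ITGA3* and *LAMC3* lie below the band at about 61% and 62.5%.

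The cytoplasmic and extracellular partners of these subunits were read from lists of other genes. Of 23 adaptors that link integrins to actin and signalling, 20 were assessed, none was at least 1.5-fold higher and 3 were at least 1.5-fold lower, with a median log2 ratio of −0.09; over all assessed genes 2.56% were higher and 6.61% lower. The 3 were *PXN*, the focal adhesion scaffold paxillin, at 57.0 and 115 FPKM (ratio 0.495), *FERMT3*, the kindlin of blood cells, at 2.10 and 3.58 FPKM (0.589), and *PARVB*, a parvin of the ILK complex, at 5.69 and 8.95 FPKM (0.635). With the GC trend subtracted their log2 values were −0.84, −0.57 and −0.56. The integrin activator talin (*TLN1*, 42.2 and 44.8 FPKM) and the scaffold kinase *ILK* (40.9 and 45.02 FPKM) were within 1.5-fold.

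Of 19 other basement membrane and integrin ligand genes 9 were assessed, 1 at least 1.5-fold higher and 1 lower, beside the same 2.56% and 6.61% of all genes, with a median log2 ratio of −0.35. *FN1*, the fibronectin that α5β1 binds, was 1.96-fold higher at 6.09 against 3.10 FPKM. *HSPG2*, the basement membrane proteoglycan perlecan, was at 1.34 and 3.43 FPKM, a ratio of 0.392. After the GC trend was subtracted their log2 values were 1.04 and −1.11. Agrin (*AGRN*), a laminin-binding proteoglycan, was at 13.1 and 16.7 FPKM, and *NID1* and *NID2*, the nidogens that tie laminin to collagen IV, were under 0.15 FPKM.

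Among 5 other laminin receptors 4 were assessed, none at least 1.5-fold higher and 1 lower, beside 2.56% and 6.61% of all genes, with a median log2 ratio of −0.49. *BCAM*, the Lutheran glycoprotein that binds the laminin α5 chain, was at 4.85 FPKM with the siRNA and 9.63 FPKM without, a ratio of 0.504 and a log2 value of −0.72 after the GC trend. *DAG1*, the dystroglycan gene, was listed at 0 in both libraries with a failed status, which the deposited table gives to 269 genes, all at 0, so its level is not known. Ligand and receptor for α5 laminin could thus be set side by side: *LAMA5* was at 66.8% of its untransfected level, *BCAM* at 50.4%, *ITGA3* at 43.6% and *ITGA6* at 105%. Of the β chains of these integrins, *ITGB1* was at 91.9% and *ITGB4* at 54.5%. After the GC trend was subtracted the log2 values were −0.31 for *LAMA5*, −0.72 for *BCAM*, −1.01 for *ITGA3* and 0.055 for *ITGA6*. They were −0.16 for *ITGB1* and −0.65 for *ITGB4*.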

How the data were processed

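RNA was extracted with Trizol, and single-read libraries were made with the TruSeq kit, which does not mark strand; the labels name an Illumina HiSeq and the study's methods a Genome Analyzer II. The deposited table holds 1 FPKM value per gene and library, for the anti-*APC* siRNA and untransfected cells, made by the authors with Cufflinks and Cuffdiff on hg19, per the submitters' processing notes; the versions, aligner and annotation are not given in the sources used here. FPKM was scaled by the authors to transcript length and mapped reads, so a difference in library composition shifts all ratios. The authors' own natural log fold changes, test statistics, p-values, q-values and calls in the same table were not used. Cells given scrambled siRNA were not analysed here.

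Per gene the ratio of the deposited FPKM values was taken without a pseudocount, for genes with a mean of at least 1 FPKM and neither library at 0 (134 genes at or above 1 FPKM had one library at 0 and were not assessed). No test was run, since each group has 1 library. Depth was estimated from the spacing of FPKM values under 0.1, reads as FPKM × canonical GENCODE 44 transcript length × depth, and 95% exact (Clopper-Pearson) binomial intervals from the split of those reads; they cover counting error only and depend on the transcript chosen. Gene coordinates are 1-based GRCh37 spans from GENCODE. Trends on transcript GC (known for 93.8% of assessed genes) and on level were lowess curves (fraction 0.3) over all genes, chosen after seeing the data. The depth estimate and the GC trend were tested on simulated data, and the intervals and the level trend were not. Every subunit at 1 FPKM or above was named, except 1 that is counted but not reported here, and of other lists those past 1.5-fold, at most 4 per list; other list genes given were picked after their values were seen, for their roles. The members and lists were chosen with earlier results of these data known. Symbols were matched to GENCODE for all 38 subunits, and *TNS2* was found under its older name *TENC1*. Reads from overlapping genes cannot be told apart without strand. Software was Python 3.11.15, statsmodels 0.14.6 (trends), scipy 1.17.1 (intervals), pandas 2.3.3, numpy 2.4.6 and matplotlib 3.10.9.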

Additional observations from a re-analysis of the deposited data

How the results depend on the processing

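No paired analysis was possible because each group has 1 library, and no library could be left out for the same reason. No setting tried reversed a count or a median, and *LAMB3* was the one assessed subunit whose log2 ratio changed sign, under the GC trend alone and with the level trend (0.06 in both). The 1 of 21 subunits at least 1.5-fold higher (2.56% of all genes) became 0 of 14 (2.02%) with a minimum of 5 FPKM, 2 of 33 (6.65%) with no minimum, where *ITGA4* near 0 was added, and 2 of 21 (7.17%) at a looser fold threshold. The 6 of 21 at least 1.5-fold lower (6.61% of all genes) became 3 of 14 (3.77%) with a minimum of 5 FPKM, 10 of 33 (12.8%) with no minimum, 10 of 21 (18.4%) at the looser threshold and 3 of 21 (1.37%) at 2-fold. They became 4 of 21 with the GC trend (3.99%) or both trends (3.12%) subtracted, and 5 of 21 with the level trend (4.24%), median centring (5.40%) or a pseudocount of 1 FPKM (4.31%). The integrin median of −0.16 became −0.23 with a minimum of 5 FPKM and −0.28 with none. The laminin median of −0.51 became −0.30 with a minimum of 5 FPKM, −0.38 with a pseudocount of 1 FPKM, −0.34 with the GC trend, −0.39 with the level trend and −0.34 with both. The narrower counts follow from fewer genes or a stricter line, and for the pseudocount and trends the cause was not tested. The subunits with a mean under 1 FPKM were left out by the minimum level, and their ratios are not described. Depth limits those with few estimated reads, such as *ITGAD* with about 3 with the siRNA and 4 without. *ITGA1* had about 108 and 144, near the 139 and 211 of the assessed *ITGA7*.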
